A study of Mus musculus with 564 samples.

Results

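Selumetinib, Refametinib and Pimasertib are the 3 allosteric inhibitors of the kinases MEK1 and MEK2 among the 58 clinical kinase inhibitors (CKIs) of this H3K27ac ChIP-seq series. Their data were taken as all libraries whose name begins with one of these 3 names, which gave 27 of 564 libraries, 9 for each compound. The cells were wild type mouse bone marrow-derived macrophages (BMDMs), primary cells grown from bone marrow, and every library came from them. Vehicle (DMSO) or 1 CKI was given for 1 h. Some cells then received no stimulus (UT), and the others received lipopolysaccharide (LPS), a ligand of TLR4, or interleukin 4 (IL-4), each at 10 ng/mL, for 4 lengths of time (0.5 h, 1 h, 2 h and 4 h). Each MEK inhibitor had 1 library per condition, while DMSO had 2 replicates of each of the 9 conditions, and the labels do not say whether these came from separate cultures. The other compounds comprised 2 ERK inhibitors, GDC0994 and Ulixertinib, and 53 CKIs with other designated targets.

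MEK1 and MEK2 are the dual-specificity kinases that phosphorylate and activate the ERK kinases. In macrophages this step is reached from the CSF-1 receptor through RAS and RAF, and from TLR4 through the kinase TPL2 (the product of Map3k8), while IL-4 signals mainly through JAK kinases and STAT6. Active ERK induces its own inhibitors, among them the phosphatases Dusp4, Dusp5 and Dusp6 and the Sprouty and Spred proteins, as well as the ETS factors Etv1, Etv4 and Etv5. H3K27ac marks active promoters and enhancers, and its level at a cis-regulatory element (CRE) is read here as a normalized read count.

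All 3 compounds bind MEK at a pocket beside the ATP site and carry a halogenated anilino group. Selumetinib is a benzimidazole with a hydroxamate ester, Pimasertib a pyridine carboxamide and Refametinib a cyclopropane sulfonamide, and both of the latter carry a fluoro-iodo-anilino group. Each compound was used at its own half-maximal effective concentration for an intended target, MEK1 in the case of Selumetinib and Pimasertib and another kinase, JNK3, in that of Refametinib. The doses thus differ, and the values of the 3 compounds are given side by side without a test between them.

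The libraries fall into 6 runs of columns in the deposited table that share no compound, and depth and contrast followed these runs. Contrast divides the median over the top 10% of CREs in a library by the median over its bottom 10%. Selumetinib and Refametinib belong to run 4, where their contrast was 23.8 to 60.1 and 29.1 to 49.9 and the estimated reads in CREs were 3.83e+06 to 7.46e+06 and 3.64e+06 to 6.51e+06. Pimasertib belongs to run 6, with a contrast of 11.0 to 20.8 and 1.41e+06 to 3.79e+06 reads. The other CKIs of the same runs had median contrasts of 34.7 (range 3.37 to 57.9) and 12.9 (4.37 to 22.8), and DMSO, outside all runs, had 75.1. Reads of the other CKIs ran from 3.46e+05 to 1.10e+07 in run 4 and from 7.09e+05 to 2.88e+06 in run 6. In both runs some of their libraries thus had a lower contrast than any MEK inhibitor library, which a term for the run does not even out. No estimate of reads could be made for 1 MEK inhibitor library, UT with Selumetinib. All 10 macrophage markers had a CRE at their start, with a median value above that of the library in each case and a summed value of 5072 to 9688 in the MEK inhibitor libraries, 6734 to 9489 in DMSO and 2661 to 9834 in the other CKIs. None of 5 T cell markers had a CRE at its start, and the 2 stromal and epithelial markers that did summed to 13 to 86, against 1 to 24 in DMSO and 0 to 189 in the other CKIs. Of the remaining lists, 2 of 4 B cell markers had a start CRE (Ms4a1 and Pax5, summed value 188 to 648 with MEK inhibitors and 203 to 790 in DMSO), as did 3 of 5 neutrophil and myeloid precursor markers (S100a8, Elane and Cebpe, 124 to 550 against 133 to 298), 2 of 3 dendritic cell markers (Flt3 and Xcr1, 96 to 317 against 121 to 438) and 1 of 3 erythroid markers (Klf1, 83 to 213 against 81 to 138). With MEK inhibitors the median value also lay above that of the library at 50% of the B cell and 50% of the dendritic cell start CREs. The share was 66.7% for the neutrophil and precursor list, 100% for the erythroid list (Klf1) and 0% for the stromal and epithelial list. Ms4a1 had a mean value of 334, beside 318 at the macrophage marker Lyz2 and 186 at Mertk. The part of other cell types in the results was not tested. No 2 libraries held identical values.

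The first question was whether MEK inhibitors change H3K27ac at CREs relative to other CKIs under the same stimulus. Compounds served as replicates, with values averaged over the 4 times of a course, and the run entered the fit as a term. In the IL-4 course, 91 of 59156 CREs (0.154%) differed between the 3 MEK inhibitors and 48 other CKIs at an adjusted p under 0.05 (limma, Benjamini-Hochberg), and all 91 were lower with the MEK inhibitors. The median difference over these 91 was -0.69 on the log2(value + 5) scale, with a range from -1.18 to -0.32, where the median over all CREs tested was -0.08. Their nearest genes, at any distance, were 64 in number. Gsdmc had the most with 5 CREs, followed by Dusp6 and Ets2 with 4 and Spred2, Myc and Jun with 3. All others had 2 or 1, and of these Etv1 and Etv5 (1 each) are named as ETS factors that ERK induces. Left without Pimasertib the count was 0, without Refametinib 7 and without Selumetinib 142, and with libraries brought to one distribution by quantile normalization it was 8.

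The 91 CREs lay mostly away from transcription starts. Only 6 (6.59%) were centred within 1 kb of the start of a protein-coding gene, against 19.3% of all CREs tested, and their median distance to the nearest start was 34.9 kb against 13.2 kb. Their centres were intergenic in 48 cases and intronic in 38. They were also of higher value than most, with a median of 138 normalized reads over all libraries where all CREs tested had 61.0. In DMSO alone, whose libraries were not used to find them, 45 of the 91 (49.5%) fell during the IL-4 course and 25 (27.5%) rose. Of the 47018 CREs tested in DMSO, 11.1% and 13.6% did (limma adjusted p under 0.01 and a log2 change over 1). After LPS 52 of 90 fell in DMSO (57.8%) and 11 rose, against 24.6% and 29.0% of the 50697 CREs tested. The shares were not matched for the higher value of the 91.

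The 7-base pattern TGANTCA stood for the AP-1 motif, with any base at N. Searched on both strands in the central 400 bases of each CRE, it was present in 28 of the 91 (30.8%) and in 22.8% of all CREs tested. The ETS motif CCGGAAGT was in 1 of 91 against 1.94%, and the CREB motif TGACGTCA, which shares no match with TGANTCA, in 0 against 1.01%. Among CREs not centred within 1 kb of a start, which 85 of the 91 are, the shares were 31.8% against 26.4% for AP-1 and 1.18% against 0.731% for ETS, so that for ETS the order turned. All these shares are a description without a test. Matches in 5 called CREs are printed here with 30 bases on each side (mm10, RefSeq copy, plus strand, match in capitals). They lie in CREs of the ERK feedback and target genes Dusp6, Spred2 and Etv5 and in strongly lowered ones near Spp1 and Mab21l1. The CREs were picked for holding a match, which reads TGAATCA at Dusp6 and Spp1. Other called CREs of Dusp6, Spred2 and Mab21l1 are not printed, so these 5 do not show how common the motif is at such genes.
Dusp6, 20.9 kb from the start, chr10:99242243-99242309: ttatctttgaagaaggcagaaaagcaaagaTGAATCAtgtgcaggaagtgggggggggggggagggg
Spred2, 4.87 kb from the start, chr11:19929243-19929309: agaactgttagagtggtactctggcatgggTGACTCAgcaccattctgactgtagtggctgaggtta
Etv5, CRE at the start, chr16:22439930-22439996: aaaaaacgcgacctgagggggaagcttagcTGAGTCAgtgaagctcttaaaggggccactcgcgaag
Spp1, 54.3 kb from the start, chr5:104380735-104380801: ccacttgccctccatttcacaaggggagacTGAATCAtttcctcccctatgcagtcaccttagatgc
Mab21l1, 130 kb from the start, chr3:55652595-55652661: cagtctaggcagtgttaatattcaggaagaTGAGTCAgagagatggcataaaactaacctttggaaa

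Dusp6, the cytoplasmic phosphatase that inactivates ERK, had 4 called CREs. With Selumetinib its start CRE (chr10:99260458-99264082) had 818, 627, 407 and 501 normalized reads at the successive times of the IL-4 course. With Refametinib it had 827, 590, 388 and 434, and with Pimasertib 511, 261, 306 and 304. Ranges and medians of read counts in the text, here and below, pool the 4 times of the course. The other CKIs of run 4 ranged from 450 to 1023 with a median of 664 over 33 libraries. Those of run 6 ranged from 296 to 927 with a median of 573 over 32. At 2 h Selumetinib and Refametinib lay below the range of run 4, as Refametinib did at 4 h. Pimasertib lay below that of run 6 at 1 h. The remaining values lay within the pooled ranges, which do not show the overlap at a single time. The DMSO libraries ran from 511 to 1002 over the 8 IL-4 samples with a median of 884.5, and all 3 compounds lay below them at 2 and 4 h. The fitted difference from the other CKIs was -0.45 ± 0.10 (SE, 3 against 48 compounds, limma adjusted p = 0.0322), and it remained past the threshold with quantile normalization (adjusted p = 0.0268).

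Around Dusp6, 8 CREs were centred within 50 kb of the gene's start, and the difference was below 0 at all 8 in the IL-4 course. Those called stood 34.9 kb (-0.79 ± 0.18, SE) and 20.9 kb (-0.67 ± 0.15) upstream, at the start, and 6.37 kb downstream (-0.60 ± 0.11, limma adjusted p = 0.00881). The CREs 15.6 kb and 11.5 kb upstream and 2.24 kb downstream had differences of -0.43, -0.45 and -0.47 and did not pass (limma adjusted p = 0.531, 0.238 and 0.160). The plot of differences by distance from the Dusp6 start shows these positions.

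**Figure D1:**
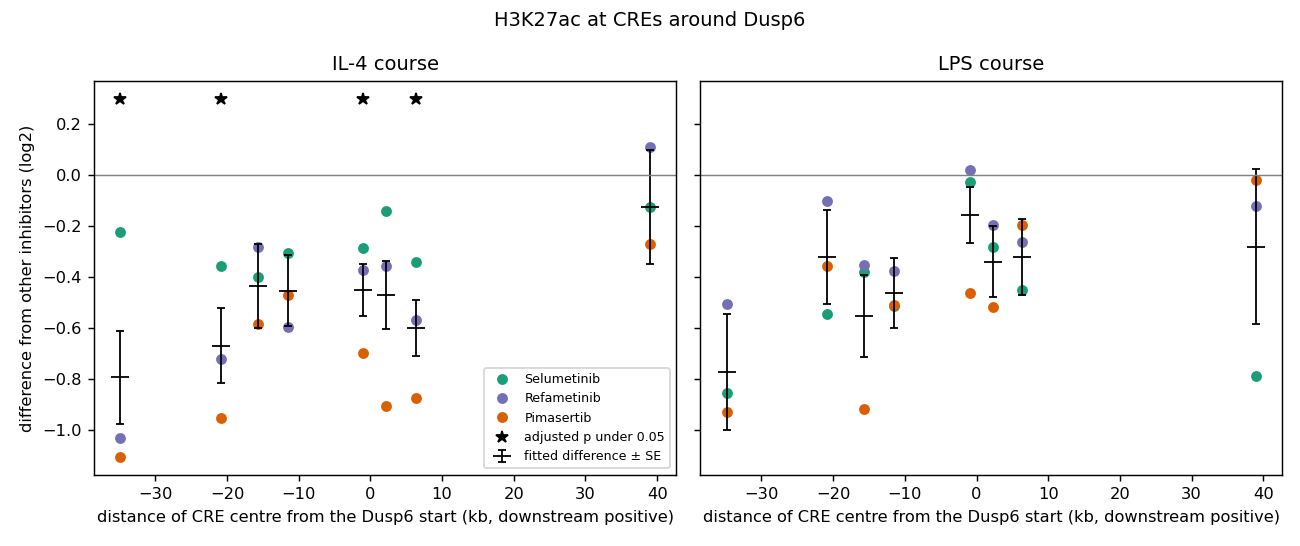
Difference in H3K27ac from the other CKIs (log2, y axis) at the 8 CREs within 50 kb of the Dusp6 start against the distance of their centres from it (kb, x axis), averaged over the IL-4 course (left) and the LPS course (right); coloured points are single compounds against the other CKIs of their own run, black marks the fitted difference ± SE and stars an adjusted p under 0.05. In the IL-4 course the fitted difference lies between -0.79 and -0.12, with stars at 4 CREs, and in the LPS course between -0.77 and -0.16 with none.

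Spred2, a membrane-bound inhibitor of RAF activation, was also called lower at its start CRE (chr11:19923288-19926965, centre in an intron). Values over the IL-4 course, in order of time, were 426, 202, 164 and 145 with Selumetinib, 318, 174, 138 and 125 with Refametinib, and 118, 63, 76 and 72 with Pimasertib. The other CKIs ranged from 109 to 529 in run 4 and from 97 to 511 in run 6, with medians of 249 and 246.5. Pimasertib lay below that pooled range at 1, 2 and 4 h, and Selumetinib and Refametinib lay within theirs. The fitted difference was -0.78 ± 0.18 (SE, limma adjusted p = 0.0376), and 2 further CREs at 4.10 kb and 4.87 kb were called with -0.65 ± 0.13 and -0.72 ± 0.15.

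Etv5, an ETS factor induced by ERK signalling, had a called CRE at its start (chr16:22438840-22440824). It had 238, 202, 150 and 262 normalized reads over the IL-4 course with Selumetinib, 221, 143, 161 and 190 with Refametinib, and 111, 98, 76 and 72 with Pimasertib, against medians of 268 and 214 in the other CKIs of runs 4 and 6. Pimasertib lay below the lowest of these in run 6 at any time (109) at 1, 2 and 4 h, and the other compounds overlapped with the pooled values of run 4. The difference was -0.74 ± 0.16 (SE, limma adjusted p = 0.0294). Etv1, of the same family, had 1 called CRE 4.84 kb from its start with a difference of -0.75 ± 0.18 (limma adjusted p = 0.0462). Another member, Etv4, had 5 CREs with a median difference of -0.25 and none called.

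**Figure D2:**
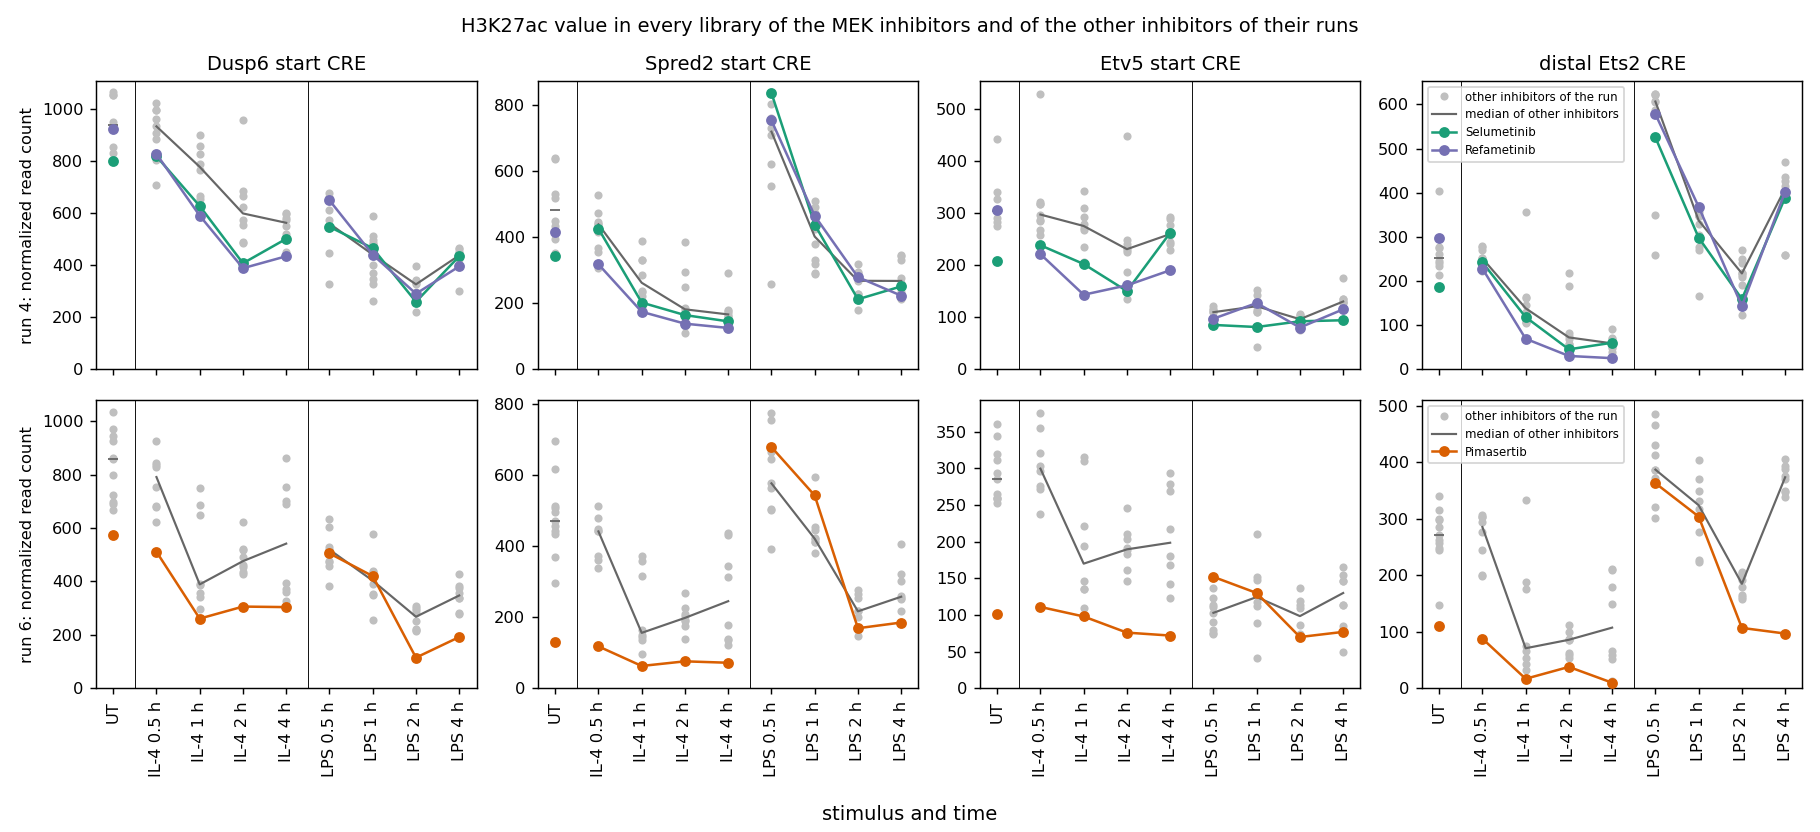
Normalized read count (y axis, from 0) at 4 called CREs in every library by stimulus and time (x axis), with Selumetinib and Refametinib of run 4 above, Pimasertib of run 6 below, the other CKIs of the same run as grey points and their median as a grey line. Pimasertib values at the Spred2 start lie at 63 to 118 over the IL-4 course and at 169 to 678 over the LPS course.

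Of the 8 called CREs with the largest differences, all but one near Ggnbp1 lay more than 50 kb from the start of a protein-coding gene. The CRE on chromosome 15 from 63615852 to 63617847, whose nearest such gene, Gsdmc, a pore-forming gasdermin, starts 192 kb away, differed by -1.18 ± 0.20 (SE, limma adjusted p = 0.00559). It had 244, 169, 122 and 111 normalized reads over the IL-4 course with Selumetinib, 258, 138, 73 and 110 with Refametinib and 88, 43, 34 and 29 with Pimasertib. All 4 Pimasertib values were below the lowest of the other CKIs of run 6 (89), and the DMSO libraries ranged from 240 to 437. In all, 5 called CREs had Gsdmc as nearest gene. A further 4 lay 119 to 133 kb from Ets2, an ETS factor whose activity ERK controls. The one with the largest difference of the 4, 127 kb away (chr16:95832579-95834461), had 88, 17, 38 and 10 normalized reads with Pimasertib, 228, 69, 30 and 25 with Refametinib and 242, 118, 45 and 60 with Selumetinib. The other CKIs had medians of 107 in run 4 and 105.5 in run 6, and the difference was -1.01 ± 0.20 (SE, limma adjusted p = 0.00994).

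The remaining CREs named by size were 2 intronic ones 122 and 130 kb from Mab21l1 (-1.05 ± 0.19 and -0.99 ± 0.18, SE), one 395 kb from Myc (-1.03 ± 0.23), one 54.3 kb from Spp1, which encodes the secreted protein osteopontin (-0.97 ± 0.22), one 133 kb from Ets2 (-0.90 ± 0.17) and one 10.1 kb from Ggnbp1 (-0.90 ± 0.17). At the Mab21l1 CRE 122 kb away the level was low, with 7 to 33 normalized reads over the 12 MEK inhibitor libraries and medians of 41 and 50.5 in the other CKIs of the runs. Myc, a growth-promoting transcription factor and ERK target, had another called CRE 12.03 kb from its start (-0.64 ± 0.13). Csf3, which encodes the granulocyte growth factor G-CSF, had 1 called CRE 8.49 kb away (-0.54 ± 0.12, limma adjusted p = 0.0308), the one CRE of the inflammatory cytokine list that was called.

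In the fixed list of ERK feedback and target genes, all 20 had CREs within 50 kb, 124 in number. In the IL-4 course 10 of them (8.06%, against 0.154% of all CREs) were called lower and 0 higher, and 112 lay below 0 (90.3%, against 69.1%). Of the 10, 4 belonged to Dusp6, 3 to Spred2 and 1 each to Etv1, Etv5 and Myc, and the other genes had none. CREs of 1 gene are neighbours, so the 10 are not independent of each other. The list was chosen with earlier results of these data known. The list median was -0.26, and it was -0.14 with quantile normalization, where all CREs had 0.01. Medians over single genes ran from -0.46 at Dusp6, -0.43 at Myc and -0.40 at Phlda1, a pleckstrin-homology protein induced by growth factors, to 0.03 at Ier3, an immediate early gene. By compound, against the other CKIs of the run, the list median was -0.20 with Selumetinib, -0.27 with Refametinib and -0.29 with Pimasertib, where the medians over all CREs were -0.07, -0.06 and -0.07. In the LPS course 0 of the 124 were called by limma, 101 lay below 0 (81.5%, against 70.0%) and 32 were lower at an unadjusted p under 0.05, with a median of -0.23 that was -0.07 with quantile normalization. In UT 110 lay below 0 (88.7%, against 66.4%), 0 were called and 15 were lower at an unadjusted p under 0.05, with a median of -0.32. Against DMSO the list median was above 0, with 0.13 in the IL-4 course (all CREs 0.33, 4 called higher and 10 lower), 0.22 in the LPS course (all CREs 0.26, 0 called by limma) and 0.38 in UT (all CREs 0.34, 2 called higher and 1 lower).

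**Figure D3:**
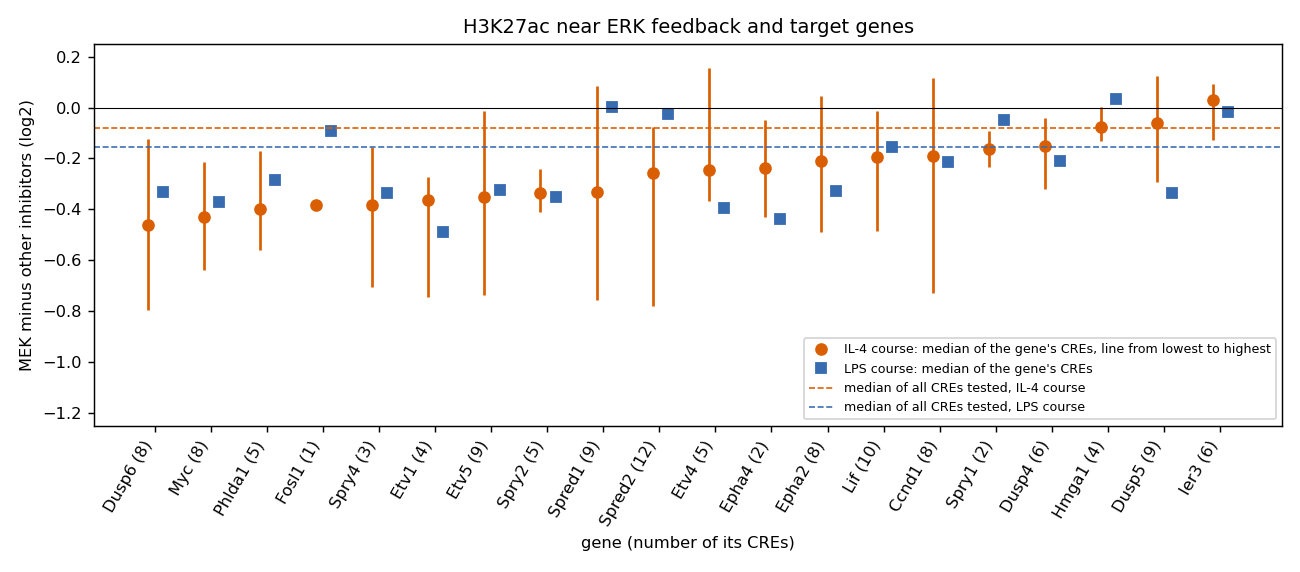
Difference between MEK inhibitors and other CKIs (log2, y axis) for the CREs of the 20 ERK feedback and target genes (x axis, number of CREs in brackets), as the median per gene in the IL-4 course (circles, with lines from the lowest to the highest CRE) and the LPS course (squares); dashed lines are the medians over all CREs, -0.08 and -0.16. The IL-4 medians of 19 genes are below 0 and that of Ier3 is 0.03.

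At the start CREs of the fixed genes outside the calls, differences in the IL-4 course were -0.32 at Dusp4 (limma adjusted p = 0.183), -0.39 at Spry2 (0.0877), -0.71 at Spry4 (0.193), -0.41 at Spred1 (0.146) and -0.71 at Ccnd1, which encodes cyclin D1 (0.0598), none past the threshold. The value was 0.03 at Dusp5, -0.23 at Spry1, -0.17 at Phlda1, -0.04 at Egr1 and -0.22 at Fos. The differences were -0.08 at Map2k1 and 0.06 at Map2k2, the genes of MEK1 and MEK2, and -0.05 at Mapk3.

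Of the other lists, the inflammatory cytokines had 1 of 112 CREs called (0.893%) and a median of -0.21. Among these, all 8 CREs of Ccl2, which encodes a monocyte chemokine, lay below 0 with a median of -0.51, and the CREs of Cxcl2 and Cxcl3, neutrophil chemokines, had medians of -0.50 and -0.46, none of them called. Other chemokines of the list lay above 0, with 0.14 at the CRE of Ccl3 and medians of 0.04 at Ccl4 and 0.07 at Ccl5, also not called. These chemokines were chosen after their values were seen. No CRE of the immediate early genes (146 CREs, median -0.03), the interferon response (49, -0.12), the IL-4 targets (93, 0.02), the MAPK cascade components (155, -0.06) or the macrophage markers (57, 0.01) was called in the IL-4 course. At unadjusted p under 0.05 these 5 lists had 10, 1, 3, 10 and 4 lower CREs and 9, 0, 2, 1 and 1 higher ones.

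The next question was whether the same regions were lower in libraries that had not been used to find them. These LPS and UT libraries come from the same compounds and runs as the IL-4 libraries, so they are no independent replication. In the LPS course no CRE was called between MEK inhibitors and 47 other CKIs (0 of 59168, limma), with 9715 at an unadjusted p under 0.05, and quantile normalization gave 3 calls, all lower. Of the 91 CREs called in the IL-4 course, 83 had a difference below 0 in the LPS course, against 70.0% of all CREs, and 55 had an unadjusted p under 0.05 and were lower, against 13.0%. Their median was -0.33, where all CREs had -0.16. In UT cells 89 lay below 0 against 66.4% of all CREs, 18 were lower at an unadjusted p under 0.05 against 3.60%, and the median was -0.34. With Refametinib alone in UT, however, 28 of the 91 lay below the other CKIs of the run, while 80 did with Selumetinib and 90 with Pimasertib.

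The differences at these CREs after LPS are given by time. The number below 0 was 50 of 91 at 0.5 h, 69 at 1 h, 84 at 2 h and 87 at 4 h, where 49.5%, 72.3%, 63.5% and 69.6% of all CREs lay below 0. The medians over the 91 were -0.02, -0.21, -0.38 and -0.61, where all CREs had 0.004, -0.23, -0.11 and -0.21. At 1 h the median of the 91 was thus not below that of all CREs. The change over time was not tested. All 91 were below 0 at each of the 4 times of IL-4, with medians of -0.47, -0.74, -0.65 and -0.81. The 91 were chosen from these same IL-4 libraries, so their IL-4 values cannot be set against those after LPS. The heat map of the 91 CREs shows the values for each compound. The test of the difference between the courses, LPS minus IL-4, called 0 of 59171 CREs (limma, 2600 at an unadjusted p under 0.05), so no CRE passed the threshold for a difference between the courses. At the Spred2 start, for instance, the difference was 0.02 ± 0.11 in the LPS course and that between the courses 0.80 ± 0.24 (SE, limma adjusted p = 0.930).

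**Figure D4:**
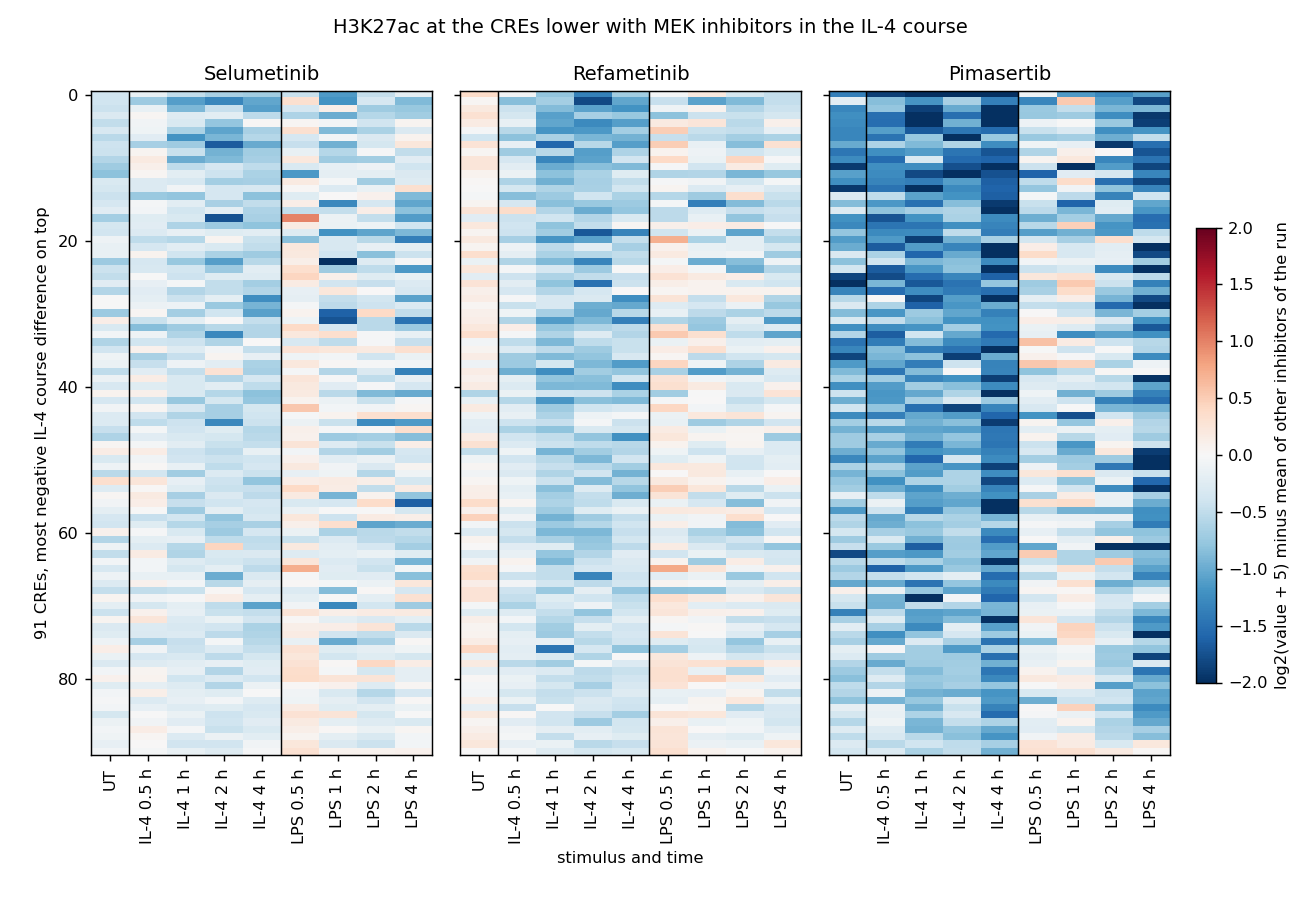
Value of each MEK inhibitor library, as log2(value + 5) minus the mean of the other CKIs of the same run, stimulus and time (colour, cut at -2 and 2), for the 91 CREs (rows, ordered by the difference in the IL-4 course) and the 9 conditions (columns). Medians over the 91 CREs in the IL-4 course were -0.32 with Selumetinib, -0.49 with Refametinib and -1.08 with Pimasertib, and most cells of the IL-4 columns are blue in all 3 while the LPS 0.5 h column is mixed. The CREs were chosen for low values in the IL-4 columns.

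A comparison within each run allowed one run to select CREs and the other to describe them, as the runs share neither compounds nor libraries. This was chosen after the data were seen. In run 6 alone, Pimasertib against the 7 other CKIs with all 4 times gave 435 lower and 1 higher CRE in the IL-4 course (0.735% and 0.00169% of 59164, limma), where the single Pimasertib value is assumed to vary as the other compounds do. Of these 435, 427 lay below 0 with Selumetinib and Refametinib in run 4, where 66.5% of all CREs did, and 220 were lower at an unadjusted p under 0.05, where 1.75% of all CREs were. Their median in run 4 was -0.23 against -0.07 for all CREs. Run 4 itself had 0 calls in the IL-4 course by limma, with 1516 CREs at an unadjusted p under 0.05. Of the 435 CREs, 74 were among the 91. Those outside the 91 included one 2.90 kb from the Ccl2 start, with -1.37 in run 6 and -0.35 in run 4, one 5.77 kb from Rasa2, which encodes a RAS GTPase-activating protein, with -1.58 and -0.64, and one 15.9 kb from Gfi1, a transcriptional repressor of myeloid cells, with -1.46 and -0.59, all 3 chosen after their values were seen.

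Pimasertib in run 6 had 421 lower and 6 higher CREs in the LPS course (0.712% and 0.0101% of 59170, limma). Of the 421, 255 lay below 0 with Selumetinib and Refametinib in run 4 (68.1% of all CREs did), 20 were lower at an unadjusted p under 0.05 (1.24% of all CREs), and their median was -0.06 against -0.15 for all CREs. The plot of run 4 against run 6 sets both courses side by side.

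**Figure D5:**
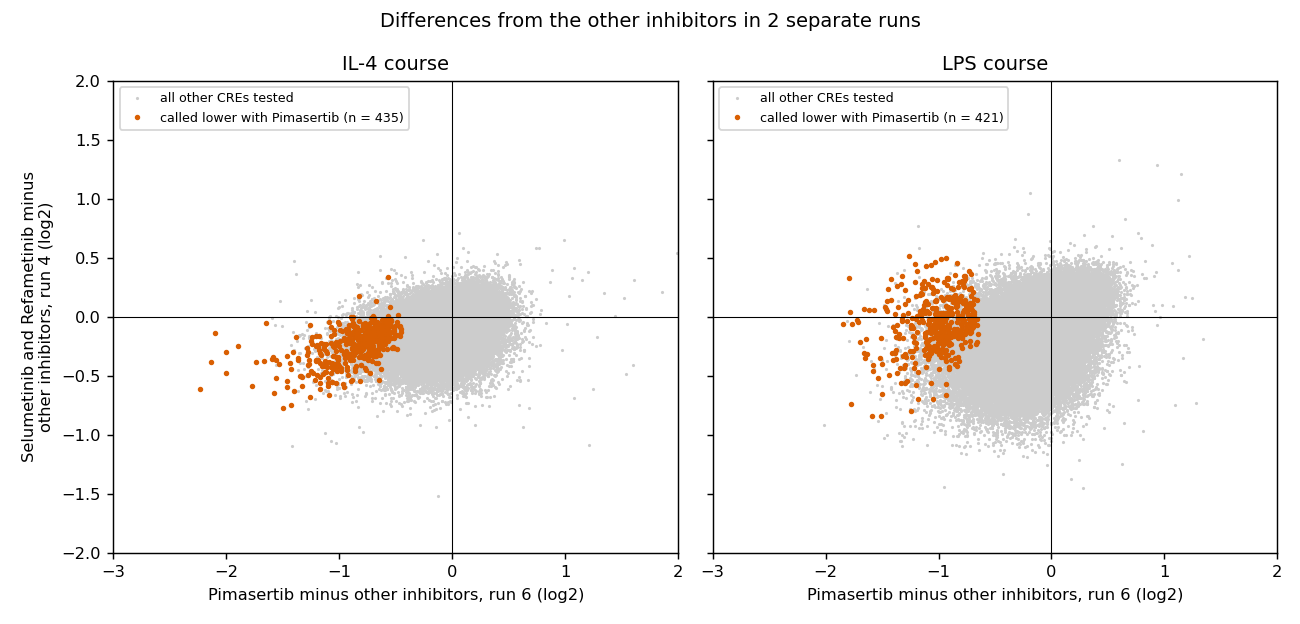
Difference of Selumetinib and Refametinib from the other CKIs of run 4 (log2, y axis) against that of Pimasertib from the other CKIs of run 6 (log2, x axis) for each CRE tested in both, in the IL-4 course (left, 58947 CREs, 1 outside the axes) and the LPS course (right, 59140 CREs, 4 outside); orange points were called lower with Pimasertib. Of the orange points 427 of 435 lie below the horizontal 0 line on the left and 255 of 421 on the right.

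At single conditions, calls against the other CKIs were few: 6 at 4 h of LPS (0.0101%), 2 at 4 h of IL-4 (0.00338%), and 0 at the other 6 stimulated conditions and in UT, where between 999 and 6393 CREs had an unadjusted p under 0.05. At 4 h of LPS the lower CREs lay 42.5 kb from Dab2, an endocytic adaptor (-1.61 ± 0.26, SE, limma adjusted p = 0.00234), 37.9 kb from Ssh2, a cofilin phosphatase (-1.36 ± 0.25), 81.2 kb from Rgs1, a regulator of G protein signalling (-1.40), and at the Csf3 CRE described above (-1.16 ± 0.23). The Dab2 CRE had 107 normalized reads with Selumetinib, 93 with Refametinib and 9 with Pimasertib at that time. Those higher lay 1.11 kb from Gpr132, a G protein-coupled receptor of macrophages (0.89 ± 0.18), and 30.7 kb from D10Jhu81e (0.92). The Gpr132 CRE had 431, 404 and 658 normalized reads. At 4 h of IL-4 the CREs 34.3 kb from Cox4i2 and 14.9 kb from Ccr1, a chemokine receptor, were lower. All 6 LPS calls were lost without Pimasertib. These 8 CREs fall outside the naming rule except where the IL-4 course names them, and are given because they are all that was called.

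ERK inhibitors act 1 step below MEK. At the 91 CREs the 2 ERK inhibitors differed from the other CKIs by a median of -0.07 in the IL-4 course, -0.04 in the LPS course and 0.03 in UT, beside -0.69, -0.33 and -0.34 for the MEK inhibitors. At the Dusp6 start CRE the values were -0.13 ± 0.12 for the ERK and -0.45 ± 0.10 for the MEK inhibitors (SE, IL-4 course). No CRE was called with ERK inhibitors in either course by limma, and the difference between both classes was not tested. The 2 classes share the other CKIs as reference, and the doses differ. The 91 CREs, the Dusp6 start among them, were chosen for low IL-4 values with MEK inhibitors. ERK inhibitor values played no part in that choice. The IL-4 values of the 2 classes therefore cannot be compared.

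The lower values at the 91 CREs were not found with MEK inhibitors alone. Ranked by the median difference from the other CKIs of its run in the IL-4 course, Pimasertib had rank 1 of 58 CKIs (-1.08), Talmapimod rank 2 (-0.68), Apatinib rank 3 (-0.56), Refametinib rank 4 (-0.49) and Selumetinib rank 6 (-0.32). Talmapimod and Apatinib lack the library at 4 h of IL-4, so their values rest on 3 times. Among the 53 CKIs with all 4 times of IL-4, Pimasertib, Refametinib and Selumetinib had ranks 1, 2 and 4, and BMS911543 had rank 3 (-0.33). In the LPS course the MEK inhibitors took ranks 1 to 3 with -0.52, -0.20 and -0.15. The CREs were chosen for low IL-4 values with MEK inhibitors, so the IL-4 ranks are a description.

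Against DMSO the calls were numerous and mostly higher, and they moved with contrast and scaling. The fits of single compounds also held the UT libraries, and the libraries of a compound, 1 per time, stood as its replicates. With stimulated libraries only, Pimasertib, Selumetinib and Refametinib had 20856, 86 and 96 calls after LPS and 30012, 1397 and 2310 after IL-4. The counts that follow include UT. In the LPS course Pimasertib differed from DMSO at 24791 CREs (41.9%), Selumetinib at 749 (1.27%) and Refametinib at 556 (0.94%), called at a limma adjusted p under 0.05 and a log2 difference over 0.5, and 22092 (37.3%), 678 (1.15%) and 523 (0.884%) of these were higher, with 2699 (4.56%), 71 (0.12%) and 33 (0.0558%) lower. In the IL-4 course the counts were 31241 (52.8%), 5095 (8.61%) and 4828 (8.16%). Of those 28312 (47.9%), 4329 (7.32%) and 4225 (7.14%) were higher and 2929 (4.95%), 766 (1.3%) and 603 (1.02%) lower. With quantile normalization they were 3751, 37 and 20 after LPS and 6293, 379 and 246 after IL-4, and the split turned from 28312 higher and 2929 lower to 2539 and 3754 for Pimasertib after IL-4. The median contrast was 16.0 with Pimasertib, 37.8 with Selumetinib, 35.5 with Refametinib and 75.1 in DMSO, and as no DMSO library belongs to a run of the compounds, compound and run cannot be told apart in these comparisons.

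As a class against DMSO, the MEK inhibitors differed at 2712 CREs in the IL-4 course (4.58%), at 270 in the LPS course (0.456%) and at 367 in UT (0.621%). After IL-4 2079 were higher (3.51%) and 633 lower (1.07%), after LPS 246 higher (0.416%) and 24 lower (0.0406%), and in UT 295 higher (0.499%) and 72 lower (0.122%). With quantile normalization these counts were 111 (37 higher and 74 lower), 9 and 22, and without DMSO replicate 1 or 2 they were 13 or 2, 2 or 3, and 7 or 4. Of the 91 CREs 90 lay below DMSO in the IL-4 course, where 25.8% of all CREs did, and 52 were called, and with quantile normalization 91 and 12. In the LPS course 52 of the 91 lay below DMSO and 0 were called. The MEK inhibitor libraries are the same in both comparisons, so this is no separate support. At the Dusp6 start CRE the difference between the MEK inhibitors and DMSO in the IL-4 course was -0.73 (limma adjusted p = 0.0477), and -0.63 (0.0841) with quantile normalization.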

How the data were processed

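H3K27ac ChIP-seq reads were aligned to mm10 by the authors, with Bowtie and SAMtools named in the submitters' notes. The deposited score values are read counts at 59190 CREs that the authors normalized and rounded to whole numbers, so no count model was used and depth was estimated from the spacing of low values (559 of 564 libraries, method tested on simulated data). Values were taken as log2(value + 5), CREs with a mean under 10 were left out, and limma 3.58.1 (R 4.3.3, trend) was fitted over all remaining CREs with Benjamini-Hochberg adjustment. Courses of single compounds against DMSO used time and compound, with UT as a further time and the libraries of a compound as its replicates. Classes used compounds as replicates, libraries with the suffix b averaged, only compounds with all 4 times, and the run as a term except against DMSO. Genes are the nearest GENCODE vM21 protein-coding starts, and a gene owns CREs centred within 50 kb. CREs were named as the 8 largest per direction with all 3 compounds on 1 side of the other CKIs' median, start CREs (any part within 1 kb) of 24 fixed genes (1 is not reported here), and list members called. On simulated data for MEK inhibitors against other CKIs in the LPS course (59168 CREs), 13, 45, 49 and 50 of 50 CREs changed by 0.5, 1, 1.5 and 2 on the log2 scale were recovered, with 8 false calls. Members and lists were chosen with earlier results of these data known. Alternatives were quantile normalization, pseudocounts of 1 and 20, no filter, other covariates, stimulated libraries only and leaving out libraries or compounds, and single runs were added after the data were seen. P-values measure the spread between these samples, which may be technical.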

Additional observations from a re-analysis of the deposited data

Results flagged for a closer look

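The CRE at the start of Jun, an AP-1 subunit (693 bp from the start, chr4:95047395-95055663), was 1 of the 91 lower in the IL-4 course, and it was the one at which every MEK inhibitor lay below the other CKIs of its run in the IL-4 course and above them in the LPS course. The deviations from the run were -0.12, -0.24 and -0.59 with Selumetinib, Refametinib and Pimasertib after IL-4 and 0.13, 0.11 and 0.21 after LPS. The fitted differences were -0.32 ± 0.07 and 0.16 ± 0.10 (SE), and the test of the difference between the courses gave 0.48 ± 0.12 (limma adjusted p = 0.930), which is not past the threshold. Normalized reads at 4 h of IL-4 were 1005, 831 and 453, and at 4 h of LPS 1094, 1077 and 777.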

How the results depend on the processing

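Of the 118 alternatives for the counts of calls, 48 were within 1.5 times the count reported. For MEK inhibitors against other CKIs in the IL-4 course (91), quantile normalization gave 8 calls, no run term 0, run 4 alone 0, run 6 alone 436 and leaving out 1 compound 0 to 142. All 91 CREs stayed below 0 in these and the other alternatives, with medians from -1.09 to -0.43. Each alternative reuses all or part of the IL-4 libraries that chose the 91, so their sign is no separate support. In the LPS course (0) the counts were 3 with quantile normalization, 7 with run and contrast as covariates, 427 in run 6 alone and 0 to 1 without 1 compound (1 without Selumetinib). Summed over each stimulus and time (8), a pseudocount of 1 gave 65, no run term 0, run and contrast 62 and leaving out 1 compound 0 to 72. Against DMSO, the class counts under quantile normalization, pseudocounts of 1 and 20, and contrast as a covariate were 9, 2109, 43 and 2134 after LPS (270), 111, 7939, 1028 and 4529 after IL-4 (2712), and 63, 3696, 200 and 1364 summed over conditions (556). Leaving out 1 compound gave 5 to 212 after LPS, 16 to 3322 after IL-4 and 31 to 262 summed, and leaving out a DMSO replicate 2 to 3, 2 to 13 and 10 to 26. For Pimasertib against DMSO, quantile normalization gave 3751 and 6293 after LPS and IL-4 and the contrast covariate 7452 and 9765. For Refametinib after LPS, quantile normalization gave 20, a pseudocount of 1 1558, stimulated libraries only 96, the contrast covariate 1214 and leaving out a DMSO replicate 82 to 92, and after IL-4 246, 8901, 2310, 3154 and 1173 to 1434, with 1773 at a pseudocount of 20. For Selumetinib after LPS the same 5 gave 37, 1811, 86, 1602 and 103 to 179, and after IL-4 quantile normalization gave 379, pseudocounts of 1 and 20 9295 and 2098, stimulated libraries only 1397 and leaving out a DMSO replicate 1339 to 1586. With the contrast covariate the class had 1609 higher and 2920 lower CREs than DMSO after IL-4. Runs 4 and 6 alone were chosen after the data were seen. The cause of these changes was not tested.

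No paired analysis was possible because the MEK inhibitor samples carry no replicate numbers that could be matched to those of DMSO. Depth is lowest with Pimasertib, and with 1 library per compound and condition a difference at a single time has no replicate error of its own. On simulated data for the LPS course 13 of 50 CREs with a log2 change of 0.5 were recovered, so changes of that size can go uncalled.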
